A study of Mus musculus with 58 samples.

Results

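The glucocorticoid receptor gene Nr3c1 and 8 genes around it in striated muscle were followed: Hsd11b1, Fkbp5, Tsc22d3, Klf15, Klf9, Zbtb16, Sgk1 and Glul. They were chosen by name, as the receptor, the enzyme that supplies its hormone inside the cell and genes that the receptor is known to induce. They are 9 of the 18820 genes measured, and earlier results of these data were known when they were chosen. All 9 were on the array, with 11 probe sets, because Klf9 and Glul each had 2, and probe sets of a gene were averaged. No filter on low levels was used, so all 9 entered every comparison.

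Glucocorticoids such as corticosterone, the main one in mice, enter cells and bind the receptor, which waits in the cytoplasm in a complex with heat shock proteins. The bound receptor moves to the nucleus, where it switches genes on from palindromic response elements and holds back many inflammatory genes. In muscle the hormone is known for a catabolic programme, with less protein synthesis, more protein breakdown and export of amino acids, mostly as glutamine.

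The arrays held total RNA of 58 tissue samples from 23 male CD2F1 mice, a cross of BALB/c and DBA/2, young adults of about 20 g at the start. T mice carried C26 cells, a single murine colon adenocarcinoma line placed under the skin of the flank, C mice received the salt solution as sham injection, and the trained groups, C + WBV and T + WBV, also had whole-body vibration training for 15 min at 45 Hz and 1 g, 7 days a week. All were killed at day 19 and the labels name no engineered allele. The extensor digitorum longus (EDL, a fast muscle) and the soleus (SOL, a slower one) came from 5 mice in T + WBV and 6 in each other group, and the heart (HRT) from 3 mice of each group, all of which also gave EDL and SOL.

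Body mass at day 19, as a percentage of its value around inoculation, was 107.9 to 114.5 in C, 107 to 111.4 in C + WBV, 77.5 to 91 in T and 75.9 to 100.9 in T + WBV. One T + WBV mouse, replicate 2 in each tissue, kept 100.9% of its body mass. It had the lowest Fkbp5 of all tumour-bearing mice in each tissue. Counts of calls with T + WBV are given with and without it. Since it was picked partly by the level of a member, the counts without it are descriptions. Apart from T + WBV replicates 1 and 2, a replicate number names different mice in the heart and in the muscles. Levels are log2 intensities, on which a difference of 1 is a doubling, and since each gene has its own probes a level was set only against the same gene's level in other samples. Array medians lay between 4.52 and 4.60. Markers of the 3 tissues followed the labels: the median of the mean level of 5 heart markers in C was 12.05 in HRT against 4.47 in EDL and 4.52 in SOL, that of 5 fast fibre markers was 12.49 in EDL, 9.10 in SOL and 4.57 in HRT, and that of 5 slow fibre markers was 12.13 in SOL, 7.42 in EDL and 8.65 in HRT.

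Promoter windows, from 250 bases before to 50 after a RefSeq start site on GRCm38.p6, were held for 7 of the 9 genes, 14 windows in all, with none for Nr3c1 or Zbtb16. Those of Sgk1, Tsc22d3 and Fkbp5 are shown because all are textbook receptor targets, of which Fkbp5 was called for T against C in every tissue and Sgk1 and Tsc22d3 in SOL and heart. Sgk1 had 6 windows, Tsc22d3 3 and Fkbp5 1, and for Sgk1 and Tsc22d3 the window shown was picked because it held a motif. The receptor's palindrome (AGAACA, any 3 bases, then TGTTCT), searched on both strands, was in 3 of 32851 windows (0.00913%), and 1 of the 3 belonged to Sgk1. This one of the Sgk1 windows, chr10:21993640-21993939 on the plus strand, held it at bases -189 to -175 from the start (capitals), where it covers 2 of the window's 3 copies of the hexamer AGAACA.
Sgk1: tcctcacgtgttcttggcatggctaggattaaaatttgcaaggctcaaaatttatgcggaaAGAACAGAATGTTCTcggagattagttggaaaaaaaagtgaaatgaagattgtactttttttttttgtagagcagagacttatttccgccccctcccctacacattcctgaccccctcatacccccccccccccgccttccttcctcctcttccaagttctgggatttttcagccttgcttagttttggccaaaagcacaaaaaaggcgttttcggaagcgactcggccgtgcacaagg
The most upstream of the Tsc22d3 windows, chrX:140600473-140600772 on the minus strand, held the hexamer AGAACA on the opposite strand at -185 to -180 (capitals). On either strand the hexamer was in 4 of the 14 windows of the 7 genes and in 19.0% of all windows.
Tsc22d3: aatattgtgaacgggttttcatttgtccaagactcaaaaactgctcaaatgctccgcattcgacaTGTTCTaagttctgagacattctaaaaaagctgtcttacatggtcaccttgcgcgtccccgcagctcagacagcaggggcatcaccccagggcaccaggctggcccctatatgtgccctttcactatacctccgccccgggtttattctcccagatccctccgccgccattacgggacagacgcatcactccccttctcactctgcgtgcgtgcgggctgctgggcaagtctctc
The Fkbp5 window, chr17:28486100-28486399 on the minus strand, held neither the palindrome nor the hexamer.
Fkbp5: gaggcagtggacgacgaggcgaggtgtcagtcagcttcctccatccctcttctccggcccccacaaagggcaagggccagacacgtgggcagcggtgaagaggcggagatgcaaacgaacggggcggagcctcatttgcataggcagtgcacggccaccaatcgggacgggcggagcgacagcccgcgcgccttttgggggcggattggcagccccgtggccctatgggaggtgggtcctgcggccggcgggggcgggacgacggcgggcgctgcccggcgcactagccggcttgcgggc
The FOXO motif GTAAACA was in 2 of the 14 windows, of Hsd11b1 and Klf9, and in 3.65% of all windows. The STAT motif TTCNNNGAA was in 3 of the 14 windows, of Sgk1, Klf9 and Tsc22d3, and in 8.3% of all windows. These are matches of letters, and the receptor's known sites in Fkbp5 lie in introns, outside such windows.

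To see how the tumour changed these genes, T was compared with C within each tissue. Fkbp5, Klf15, Zbtb16 and Glul were higher in EDL, SOL and heart alike, which 198 of all 18820 genes were (1.05%). Fkbp5 changed most, by 6.48-fold in EDL, 6.36-fold in SOL and 6.33-fold in heart. In EDL 4 of the 9 genes were higher and none lower, where 22.4% of all genes were called (10.7% higher). In SOL 6 were higher and 1 lower, against 13.7% of all genes called (5.06% higher and 8.66% lower). In the heart 6 were higher and none lower, against 5.74% of all genes called (2.7% higher and 3.04% lower). A call is an adjusted p below 0.01 over all genes in limma. In bulk tissue, fewer cells of a type and less RNA per cell cannot be told apart.

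**Figure D1:**
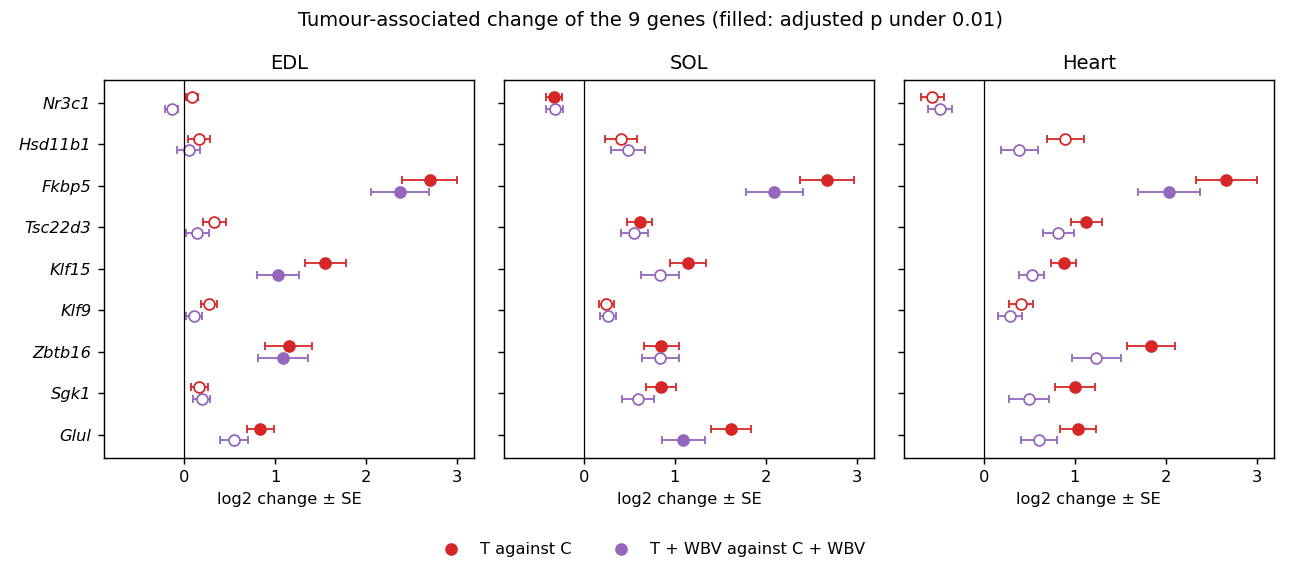
Log2 change with its SE (x axis) of each of the 9 genes (y axis) in EDL, SOL and heart, for T against C (red) and T + WBV against C + WBV (purple), with filled points for an adjusted p below 0.01. Fkbp5 lies farthest to the right in every panel, and Nr3c1 is left of 0 in SOL and heart.

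Nr3c1, the receptor itself, was the only member whose tumour-associated change was called different between tissues in the fit over all arrays. In EDL its level was 8.27 to 8.52 (median 8.39) in C and 8.29 to 8.60 (median 8.51) in T. The groups overlapped, with a change of 0.09 (SE 0.07, adjusted p = 0.366). In SOL it was 8.24 to 8.65 (median 8.33) in C and 7.85 to 8.23 (median 8.03) in T, so that every T muscle was below every C muscle. Here and below, a lack of overlap in EDL or SOL is a description, since the share of all genes is given for heart alone. Nr3c1 fell in SOL by 0.33 on the log2 scale (SE 0.09, adjusted p = 0.00836), a call that was lost without any of 9 of the 12 SOL samples compared (adjusted p up to 0.0271). In the heart the C values were 8.47, 8.27 and 8.13 and the T values 7.58, 7.79 and 7.82, again without overlap. The change was -0.56 (SE 0.13) with an adjusted p of 0.0115, above the threshold. The difference between tissues was itself tested in a fit over all arrays: the tumour effect was lower in heart than in EDL by 0.65 (SE 0.13, adjusted p = 0.0009), which made Nr3c1 the only one of the 9 so called, where 3.5% of all genes were. Between SOL and EDL it was -0.42 (SE 0.11, adjusted p = 0.0107), and none of the 9 was called there, where 2.02% of all genes were (with differences taken within each mouse, Glul alone was), nor between heart and SOL, where 1.68% were.

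Hsd11b1 encodes the enzyme that regenerates active corticosterone from its inert keto form within cells. In the heart it was 6.72, 6.50 and 6.49 in C and 7.23, 7.82 and 7.36 in T, without overlap. The change was 0.90 (SE 0.20, adjusted p = 0.0105), just short of the threshold. In SOL it was 5.47 to 6.08 (median 5.72) in C and 5.74 to 6.67 (median 6.12) in T, with a change of 0.41 (SE 0.18, adjusted p = 0.109). In EDL the change was 0.16 (SE 0.12, adjusted p = 0.363), and in both muscles the groups overlapped.

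**Figure D2:**
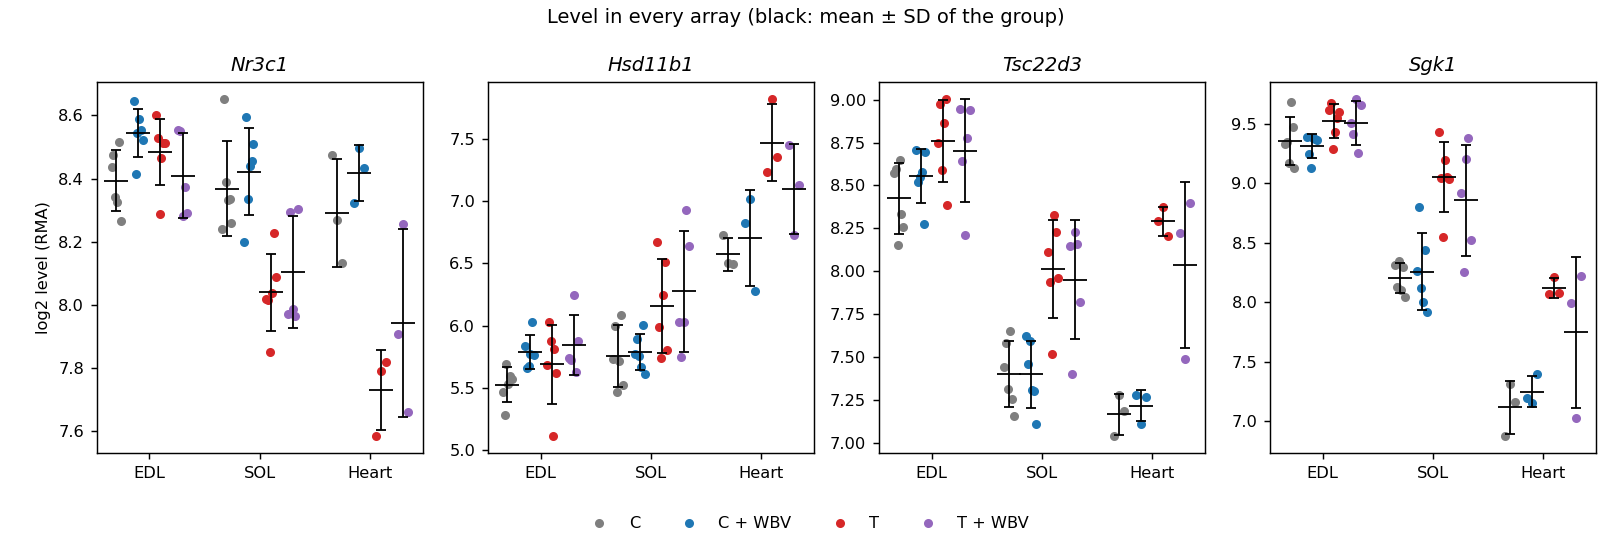
Log2 level (y axis) of Nr3c1, Hsd11b1, Tsc22d3 and Sgk1 in every array by tissue and group (x axis, colours), with the group mean and SD in black. The y axes differ between genes. Tsc22d3 and Sgk1 start highest in the EDL of C mice (means 8.43 and 9.36) and lowest in their heart (7.17 and 7.12), and the T values of both lie above all C values in heart.

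Fkbp5 encodes a co-chaperone that lowers the receptor's affinity for hormone and is itself strongly induced by the receptor, forming a feedback loop. In EDL its level was 6.74 to 7.86 (median 7.08) in C and 8.98 to 10.34 (median 10.00) in T. In SOL it was 6.51 to 7.22 (median 6.93) in C and 8.65 to 10.01 (median 9.74) in T. In the heart it was 6.98, 6.70 and 6.78 in C and 9.49, 9.49 and 9.47 in T. T and C were far apart in all 3 tissues, and the 3 T hearts hardly differed from each other (SD 0.01). The change was nearly the same everywhere: 2.70 in EDL (SE 0.30, adjusted p = 1.16e-06), 2.67 in SOL (SE 0.30, adjusted p = 2.25e-06) and 2.66 in heart (SE 0.34, adjusted p = 0.000411). Among all 18820 genes these ranked 13, 9 and 14 from the highest change.

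Tsc22d3 encodes GILZ, a leucine zipper protein through which glucocorticoids damp inflammatory signalling. In the heart it was 7.04, 7.28 and 7.18 in C and 8.29, 8.37 and 8.21 in T, with no overlap. It rose by 1.12 there (SE 0.17, adjusted p = 0.00106). In SOL it was 7.15 to 7.65 (median 7.38) in C and 7.52 to 8.33 (median 8.03) in T. Only T replicate 3, the T mouse of highest body mass, fell within the range of C. It rose by 0.61 in SOL (SE 0.14, adjusted p = 0.00233). In EDL, where its control level was highest, the change was 0.33 (SE 0.12, adjusted p = 0.0396).

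Klf15 encodes a transcription factor that switches on amino acid breakdown in muscle and is a direct receptor target. In EDL its level was 7.36 to 7.84 (median 7.59) in C and 8.21 to 9.67 (median 9.27) in T. In SOL it was 6.92 to 7.84 (median 7.47) in C and 7.90 to 9.03 (median 8.82) in T. In the heart it was 7.32, 7.35 and 7.51 in C and 8.27, 8.35 and 8.22 in T. No T sample reached down to a C sample in any tissue. Klf15 rose by 1.55 in EDL (SE 0.22, adjusted p = 1.18e-05), by 1.14 in SOL (SE 0.20, adjusted p = 0.000176) and by 0.88 in heart (SE 0.14, adjusted p = 0.00134). With all 58 arrays in one fit the call in heart was lost (adjusted p = 0.0443), and the difference in tumour effect between heart and EDL was -0.70 (SE 0.32, adjusted p = 0.183). Between SOL and EDL it was -0.41 (SE 0.25, adjusted p = 0.403). Taken as differences within each mouse, this had a smaller SE of 0.14 and an adjusted p of 0.0887, also not called.

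Klf9, a related factor that glucocorticoids also induce, changed less. The changes were 0.28 in EDL (SE 0.08, adjusted p = 0.0134), 0.25 in SOL (SE 0.08, adjusted p = 0.0358) and 0.42 in heart (SE 0.13, adjusted p = 0.0509), none past the threshold. Its 2 probe sets differed. The brighter, 10462091, gave 0.45 in EDL (adjusted p = 4.27e-05), 0.29 in SOL (adjusted p = 0.0212) and 0.60 in heart (adjusted p = 0.00992). The dimmer, 10466680, gave 0.10, 0.20 and 0.24 with adjusted p of 0.527, 0.182 and 0.346. The T and C hearts did not overlap for the average of both, at 7.75, 7.81 and 7.84 in C and 8.20, 8.31 and 8.14 in T. In the heart groups of T and C, such a gap without overlap was found for all 9 members, 8 higher and Nr3c1 lower, and for 15.7% of all genes upward and 16.3% downward.

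Zbtb16 encodes PLZF, a zinc finger repressor that is among the genes most responsive to glucocorticoids in human tissues. It varied widely among control mice, at 7.92 to 9.66 (median 9.07) in the EDL of C and 9.25 to 10.31 (median 10.14) in that of T. These ranges overlapped, with C replicate 1 above T replicate 3. In SOL it was 8.58 to 9.78 (median 9.16) in C and 9.52 to 10.26 (median 10.02) in T, also with overlap. In the heart the C values of 8.40, 7.62 and 8.90 were spread over more than 1 log2 unit, while the T values were 10.08, 10.21 and 10.14. Zbtb16 rose by 1.15 in EDL (SE 0.26, adjusted p = 0.00118), by 0.85 in SOL (SE 0.19, adjusted p = 0.0023) and by 1.84 in heart (SE 0.26, adjusted p = 0.000792). The difference in tumour effect between heart and SOL, 0.91 (SE 0.37), had an adjusted p of 0.179.

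Sgk1, the serum and glucocorticoid regulated kinase, which shares substrates with AKT, differed in SOL and heart. In EDL it was 9.13 to 9.68 (median 9.34) in C and 9.28 to 9.67 (median 9.57) in T, with overlap, and the change of 0.17 (SE 0.09, adjusted p = 0.187) was not called. In SOL it was 8.04 to 8.34 (median 8.21) in C and 8.55 to 9.43 (median 9.05) in T, without overlap. In the heart it was 6.87, 7.31 and 7.16 in C and 8.07, 8.21 and 8.07 in T, without overlap. Sgk1 rose by 0.85 in SOL (SE 0.17, adjusted p = 0.000673) and by 1.00 in heart (SE 0.22, adjusted p = 0.00891). The call in heart was lost without any 1 of the 6 hearts (adjusted p 0.0152 to 0.0406). Against EDL the tumour effect was larger by 0.68 in SOL (SE 0.19, adjusted p = 0.0281) and by 0.83 in heart (SE 0.24, adjusted p = 0.0233), neither past the threshold.

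Glul encodes glutamine synthetase, which in wasting muscle makes the glutamine that is exported, and both of its probe sets gave the same calls. In EDL its level was 9.96 to 10.85 (median 10.59) in C and 10.60 to 11.64 (median 11.44) in T, where T replicate 3 alone lay within the range of C. In SOL it was 8.77 to 9.55 (median 9.19) in C and 9.71 to 11.08 (median 11.00) in T, and in the heart 10.44, 9.69 and 10.17 in C and 10.96, 11.17 and 11.28 in T. Those groups did not overlap. Glul rose by 0.84 in EDL (SE 0.15, adjusted p = 0.000103), by 1.62 in SOL (SE 0.22, adjusted p = 1.88e-05) and by 1.04 in heart (SE 0.20, adjusted p = 0.00366), the last call being lost without heart replicate 2 or 3 of C or of T (adjusted p up to 0.0202). The larger change in SOL than in EDL, by 0.78 (SE 0.24), had an adjusted p of 0.0453. Taken as differences within each mouse, which gave both muscles, it was called (0.78, SE 0.15, adjusted p = 0.00181), the only member so called, where 2.21% of all genes were.

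**Figure D3:**
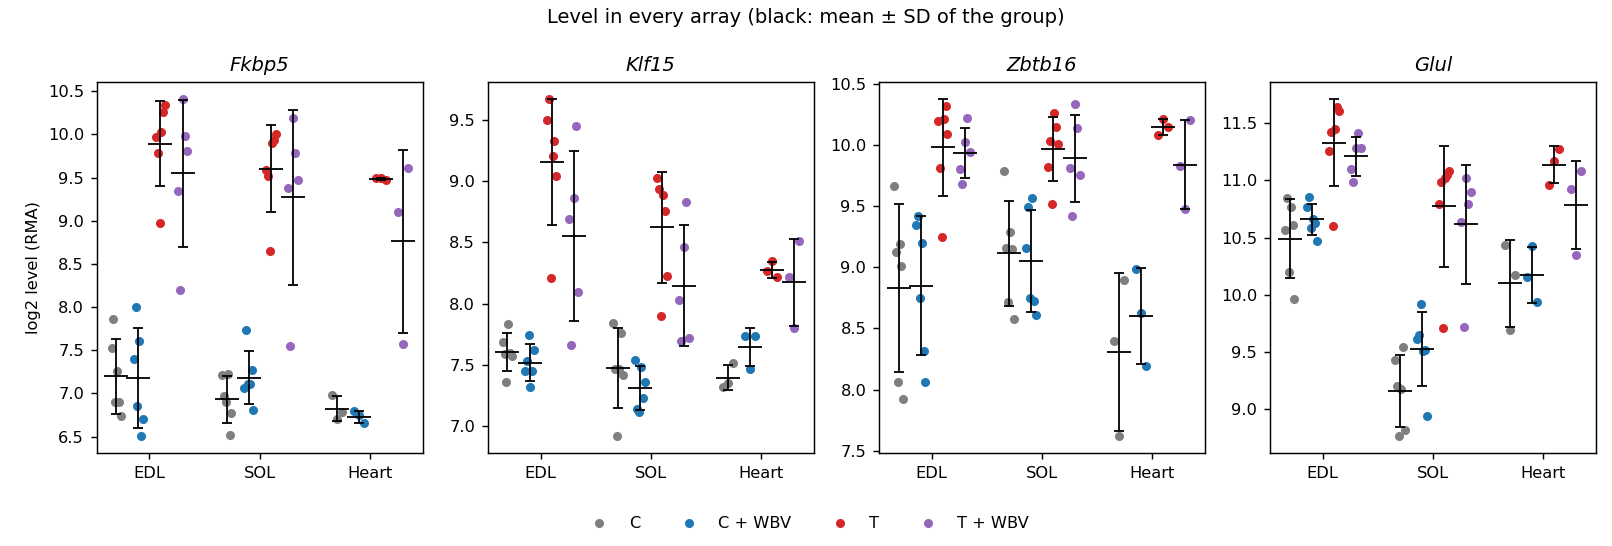
Log2 level (y axis) of Fkbp5, Klf15, Zbtb16 and Glul in every array by tissue and group (x axis, colours), with the group mean and SD in black. The y axes differ between genes. T and C are apart for Fkbp5 and Klf15 in every tissue, and the lowest T + WBV points of Fkbp5 (8.19, 7.54 and 7.57 in EDL, SOL and heart) belong to the mouse that kept its body mass.

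In C mice the tissues differed in several of these genes. Sgk1 fell in the order EDL, SOL, heart, with means of 9.36 ± 0.20 (SD, n = 6), 8.20 ± 0.13 (SD, n = 6) and 7.12 ± 0.22 (SD, n = 3). SOL was below EDL by 1.15 (SE 0.14, adjusted p = 1.91e-09) and the heart below SOL by 1.09 (SE 0.17, adjusted p = 6.49e-07). Tsc22d3 was highest in EDL, at 8.43 ± 0.21 (SD, n = 6), and lower by 1.03 in SOL (SE 0.12, adjusted p = 2.83e-09) and by 1.25 in heart (SE 0.16, adjusted p = 1.44e-09). SOL and heart were not called different for Tsc22d3 (heart lower by 0.22, SE 0.16, adjusted p = 0.292). Glul was lower in SOL, at 9.16 ± 0.32 (SD, n = 6), than in EDL, at 10.49 ± 0.34 (SD, n = 6). The gap was 1.33 (SE 0.17, adjusted p = 1.14e-08), and the heart was above SOL by 0.93 (SE 0.21, adjusted p = 0.000357) but was not called different from EDL (-0.40, SE 0.21, adjusted p = 0.128).

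Hsd11b1 ran the other way, with the heart at 6.57 ± 0.13 (SD, n = 3) above EDL at 5.53 ± 0.14 (SD, n = 6) by 1.03 (SE 0.19, adjusted p = 6.57e-06) and above SOL by 0.81 (SE 0.19, adjusted p = 0.000415). Klf9 was lower in heart than in EDL by 0.62 (SE 0.10, adjusted p = 3.08e-07) and than in SOL by 0.50 (SE 0.10, adjusted p = 3.13e-05). For Nr3c1 the C means of EDL, SOL and heart were 8.39, 8.37 and 8.29, and no pair of tissues was called different (smallest adjusted p = 0.324). Fkbp5, Klf15 and Zbtb16 were not called between any pair of tissues either. In all, 3 of the 9 were called between SOL and EDL, where 13.9% of all genes were, 4 between heart and EDL, where 31.9% were, and 4 between heart and SOL, where 25% were.

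Training was studied to learn whether vibration alters the tumour's effect. None of the 9 genes differed between T + WBV and T, between C + WBV and C, or in the interaction of tumour and training, in any tissue, and 0% of all genes were called in these 9 comparisons in limma. No alternative setting gave a call among the 9 genes either. At an unadjusted p below 0.05 the interaction counted 1 of the 9 in EDL and 0 in SOL and heart (596, 838 and 1105 of all genes), and T + WBV against T counted 1 of the 9 in each tissue (902, 939 and 1407 of all genes). C + WBV against C counted 2 of the 9 in EDL and 0 elsewhere (627, 598 and 625 of all genes). The largest differences between T + WBV and T were those of Klf15 in EDL, -0.61 (SE 0.23, adjusted p = 0.867), and of Fkbp5 in heart, -0.72 (SE 0.34, adjusted p = 0.665).

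Klf15 in the EDL of the 5 T + WBV mice was 8.69, 7.66, 8.86, 9.45 and 8.10 for replicates 1 to 5, against 8.21 to 9.67 in T. The groups overlapped, and the value nearest to the C mice was that of replicate 2, the mouse at 100.9% of its body mass. Fkbp5 in the T + WBV hearts was 9.11, 7.57 and 9.61, where again the low value was this mouse's. Without it, T + WBV against T still gave no call among the 9 genes in any tissue.

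Among trained mice, T + WBV was compared with C + WBV. In EDL Fkbp5 rose by 2.37 (SE 0.32, adjusted p = 2.48e-05), Klf15 by 1.03 (SE 0.23, adjusted p = 0.00249) and Zbtb16 by 1.08 (SE 0.27, adjusted p = 0.00579). These 3 were the members called, where 11.9% of all genes were. In SOL 2 were called, Fkbp5 with 2.09 (SE 0.31, adjusted p = 0.000214) and Glul with 1.09 (SE 0.23, adjusted p = 0.00436), where 3.61% of all genes were. In the heart only Fkbp5 was called, with 2.03 (SE 0.34, adjusted p = 0.00413), where 1.49% of all genes were. Several of these calls were not stable. That of Fkbp5 in heart was lost in 7 of 14 alternatives (adjusted p up to 0.0444), 5 of them without 1 heart, namely any of C + WBV or T + WBV replicate 1 or 3. Glul in SOL was lost in 8 of 20 (adjusted p up to 0.0264), 5 of them without 1 muscle, C + WBV replicate 6 or T + WBV replicate 1, 3, 4 or 5. Zbtb16 in EDL was lost in 7 of 20, without C + WBV replicate 3, 5 or 6 or T + WBV replicate 1, 3, 4 or 5 (adjusted p up to 0.0213), and Klf15 in EDL without T + WBV replicate 4 (adjusted p = 0.0126).

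Without T + WBV replicate 2 more genes were called in general. Leaving out a mouse picked partly by its low Fkbp5 favours such calls, and in heart only T + WBV replicates 1 and 3 remained. The members called numbered 4 in EDL, with Glul added, where 17.6% of all genes were called, 6 in SOL, where 7.73% were, and 8 in heart, where 8.63% were. Tsc22d3, Klf15, Zbtb16 and Sgk1 were among them in SOL and heart, and Nr3c1 in heart with a change of -0.63.

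With C as the reference for T + WBV, which shares its controls with the comparison of T and C, 4 members were called in EDL (11.1% of all genes), 2 in SOL (4.67%) and 3 in heart (1.47%), all higher. Fkbp5 was among them in each tissue, with 2.35, 2.34 and 1.94. Without T + WBV replicate 2 EDL counted 4 (17% of all genes), SOL 5 (8.73%) and the heart 8 (8.83%). The Nr3c1 changes were 0.02 in EDL (SE 0.07), -0.26 in SOL (SE 0.09) and -0.35 in heart (SE 0.13), with adjusted p of 0.911, 0.0672 and 0.132.

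Among the 11 tumour-bearing mice the levels were related to body mass. Per 10 percentage points of body mass kept, Fkbp5 fell by 0.87 in EDL (SE 0.08, adjusted p = 0.000176) and by 0.98 in SOL (SE 0.10, adjusted p = 0.000252). It was the only member called in EDL, where 2.54% of all genes were. In SOL Glul was called too, falling by 0.62 (SE 0.09, adjusted p = 0.00221), where 0.988% of all genes were. Klf15 in EDL (-0.69, SE 0.16, adjusted p = 0.0146), Zbtb16 in SOL (-0.33, adjusted p = 0.0221) and Sgk1 in SOL (-0.41, adjusted p = 0.0285) did not pass, and Nr3c1 gave slopes of 0.02 in EDL and 0.05 in SOL.

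No slope of the 9 genes was called without T + WBV replicate 2, at 100.9%, where 0.0266% of all genes were called in EDL and 0% in SOL. The labels do not say whether body mass includes the tumour, while carcass mass leaves it out by the study's methods. Per g of carcass mass, Fkbp5 fell by 0.27 in EDL (SE 0.04, adjusted p = 0.00585) and Klf15 by 0.25 (SE 0.05, adjusted p = 0.00896), the 2 members called, where 1.03% of all genes were. In SOL neither the Fkbp5 nor the Glul slope was called any longer, with -0.30 for Fkbp5 (SE 0.05, adjusted p = 0.0104) and -0.18 for Glul (SE 0.04, adjusted p = 0.0336), where 0.356% of all genes were. Pearson's r of Fkbp5 with body mass was -0.95 in EDL (permutation p = 0.00017, 0.00153 adjusted over 18 relations) and -0.94 in SOL (permutation p = 0.00011, 0.00153 adjusted). Spearman's rho was -0.78 (permutation p = 0.00659, 0.0593 adjusted) and -0.83 (permutation p = 0.00281, 0.0506 adjusted). Without the 2 mice farthest from the median, T + WBV replicate 2 and T replicate 3 at 91%, r was -0.76 in EDL and -0.66 in SOL over 9 mice. Fkbp5 of the mouse that kept 100.9%, with 8.19, 7.54 and 7.57 for EDL, SOL and heart, was above the highest C value of each tissue (7.86, 7.22 and 6.98), while 1 C + WBV mouse reached 7.74 in SOL. In the 6 hearts of tumour-bearing mice no slope was fitted.

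**Figure D4:**
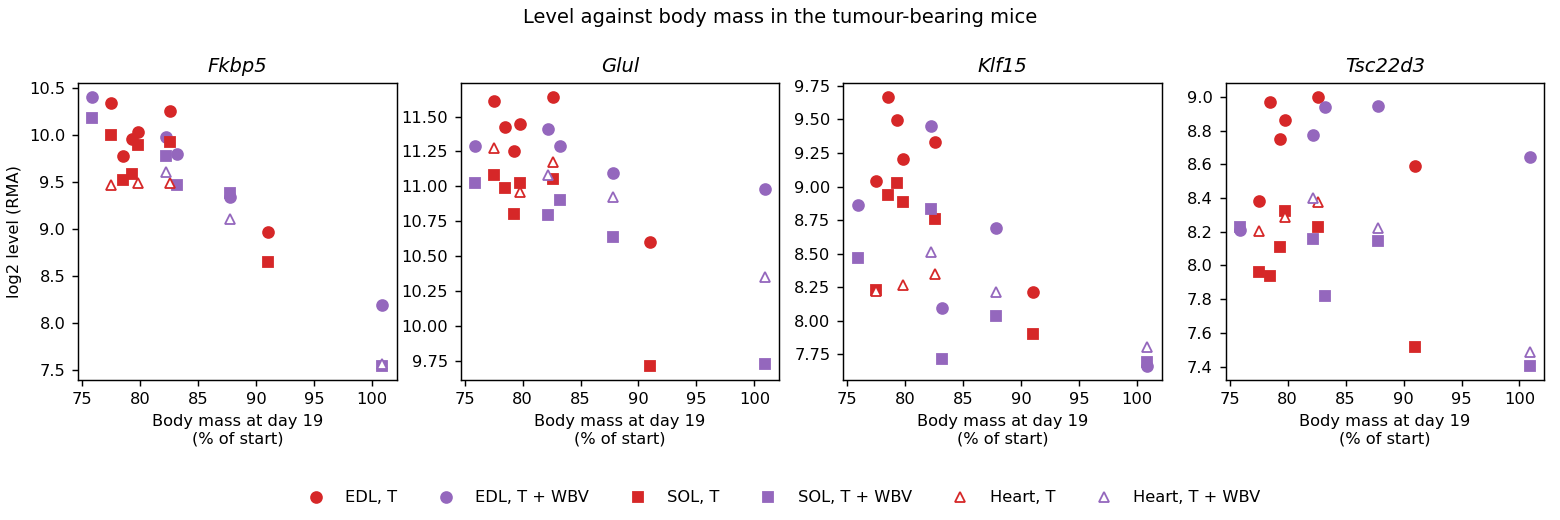
Log2 level (y axis) of Fkbp5, Glul, Klf15 and Tsc22d3 against body mass at day 19 in percent of the start (x axis) in the tumour-bearing mice, with EDL, SOL and heart as circles, squares and open triangles, T in red and T + WBV in purple. The y axes differ between genes. Fkbp5 is lowest in the mouse at 100.9% in each tissue, and r of Tsc22d3 with body mass was 0.12 in EDL and -0.76 in SOL (0.69 and -0.01 without the 2 mice farthest from the median).

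Both muscles came from the same mice, so their levels could be set side by side. Over the 11 tumour-bearing mice the r between EDL and SOL was 0.98 for Fkbp5, 0.94 for Klf15, 0.88 for Glul, 0.73 for Zbtb16 and 0.72 for Klf9. It was 0.18 for Nr3c1, 0.16 for Sgk1, 0.14 for Tsc22d3 and -0.18 for Hsd11b1. For the first 5 genes a mouse with a high level in EDL also had a high level in SOL, and for the other 4 this held little or not at all. Over all 58 arrays, with tissue means removed, r with Fkbp5 was 0.89 for Glul, 0.87 for Zbtb16 and 0.86 for Klf15, and -0.59 for Nr3c1. These values are descriptions, since the arrays share mice and the contrast of tumour and control.

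By the same measure over 58 arrays, the genes most like Fkbp5 were Lcn2 (r 0.97), Serpina3n (0.97) and Map3k6 (0.96), and the most opposite were Itgb6, Nrep and Tet1 (-0.95, -0.95 and -0.94). For Nr3c1 they were Igsf1, Chm and Ppp1r16b (each 0.71) and, opposite, Fetub (-0.77), Ttyh1 (-0.77) and Gpihbp1 (-0.76). For Zbtb16 they were Xdh (0.91), Map3k6 (0.88) and Plin4 (0.88) and, opposite, Smtn (-0.84), Ckb (-0.83) and Chek2 (-0.82). For Klf15 the closest was Tcp11l2 (0.95) and the most opposite Mef2c (-0.94), a muscle transcription factor. For Glul they were Fam107a (0.91) and Smtn (-0.90), for Tsc22d3 Jaml (0.88) and Lmod3 (-0.83), for Sgk1 Smim41 (0.85) and Wdr1 (-0.82), for Klf9 Trp53inp1 (0.83) and Apool (-0.78), and for Hsd11b1 Amy1 (0.74) and Apc2 (-0.72).

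Around the 9 genes, 28 other genes that glucocorticoids are known to induce were measured. For T against C 22 rose and 1 fell in EDL, 19 rose and 1 fell in SOL, and 7 rose and none fell in heart, beside the 22.4%, 13.7% and 5.74% of all genes called there, against which the counts of every other list are also read. In heart the muscle ubiquitin ligases Trim63 and Fbxo32 gave -0.03 and 0.16 and the kinase Pdk4, which restrains glucose oxidation, -0.28, with adjusted p of 0.952, 0.534 and 0.742. These genes were picked from the list for heart alone. In gastrocnemius, a skeletal muscle not on these arrays, the paper reports both ligases higher in tumour-bearing mice. The heart values do not bear on that result, and the EDL and SOL values of the ligases are not given here. The list's median change in EDL, SOL and heart was 1.65, 1.05 and 0.57, against -0.03, -0.01 and 0.00 for all genes. The largest in EDL was the metallothionein Mt2, a metal-binding stress protein, with 3.95 (SE 0.42) in EDL, 2.58 (SE 0.29) in SOL and 3.53 (SE 0.39) in heart. Ddit4, which restrains mTOR, rose by 3.42, 3.03 and 2.30 (SE 0.40, 0.39 and 0.47). The transcription factor Cebpd rose by 3.03, 2.69 and 1.92 (SE 0.32, 0.31 and 0.23), and the cell cycle inhibitor Cdkn1a by 2.84, 2.69 and 2.74 (SE 0.31, 0.30 and 0.49). The exceptions were Bcl6, which fell by 1.00 in EDL (SE 0.23), and the lipid phosphatase Lpin1, which rose by 0.59 in EDL (SE 0.12) and fell by 0.46 in SOL (SE 0.12). Many of these genes are also induced by inflammatory cytokines and by fasting.

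Of 14 chaperones and coregulators of the receptor, 3 rose and 1 fell in EDL, close to the 22.4% of all genes called there, none was called in SOL and 2 rose in heart. The co-chaperone Ptges3 rose by 0.71 (SE 0.09) and the coactivators Ncoa3 and Crebbp by 0.52 (SE 0.11) and 0.33 (SE 0.08) in EDL, while the co-chaperone Stip1 fell by 0.43 (SE 0.11). Ncoa3 and Crebbp also rose in heart, by 0.48 and 0.34. Of 6 steroid-handling genes, Nr3c2, the mineralocorticoid receptor, which also binds corticosterone, fell in every tissue, by 0.80 in EDL (SE 0.12), 0.44 in SOL (SE 0.10) and 0.65 in heart (SE 0.09). The steroid exporter Abcb1b rose by 1.50 in EDL (SE 0.17) and 1.00 in SOL (SE 0.17), and H6pd, which supplies the cofactor of the Hsd11b1 enzyme, rose by 0.50 in EDL (SE 0.10).

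Downstream of Klf15, 9 genes were listed, for amino acid use apart from the glucose transporter Slc2a4, and 1 rose in each tissue. It was Prodh, which starts proline breakdown, by 1.00 in EDL (SE 0.16), 0.90 in SOL (SE 0.14) and 0.99 in heart (SE 0.16). Bckdk, the kinase that switches off branched-chain keto acid oxidation, fell by 0.56 in EDL (SE 0.11) and 0.43 in SOL (SE 0.11). Around Glul, 3 of 7 glutamine genes rose in EDL and 3 in SOL, namely the transporters Slc38a2 (1.30 and 1.00) and Slc7a5 (0.59 and 0.73) and asparagine synthetase, Asns (1.07 and 0.72). The glutamine transporter Slc38a3 fell by 0.92 in EDL and by 0.58 in SOL, and glutamate dehydrogenase, Glud1, by 0.31 in SOL and 0.35 in heart. Those were the remaining calls on this list.

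Of 6 relatives and substrates of Sgk1, Sgk3 rose by 0.72, Gsk3b by 0.49 and Nedd4l by 0.46 in EDL, Ndrg1 rose by 0.44 in SOL and none was called in heart. Of 14 relatives of the Klf, Tsc22 and Fkbp members, 4 rose and 2 fell in EDL, 3 rose and 2 fell in SOL, and 1 fell in heart. Klf4 rose by 1.40 and 1.62, Klf6 by 0.95 and 0.91 and Klf13 by 0.60 and 0.69 in EDL and SOL, while Klf12 fell by 0.45 and 0.54. Tsc22d4 fell by 0.43, 0.67 and 0.65 in EDL, SOL and heart (Tsc22d3 changed by 0.33, 0.61 and 1.12). Of 10 inflammatory genes that glucocorticoids repress, 1 rose in EDL (Icam1, by 0.56), and in SOL 1 rose (Il1b, by 0.70) and 3 fell (Tnf by 0.85, Nos2 by 0.86 and Vcam1 by 0.83). In heart Nos2 alone fell, by 0.93.

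Markers of some other cell types also differed between T and C. Of 8 neutrophil markers 3 rose in EDL, 5 in SOL and 4 in heart, and none fell. Their summed level (log2) was 6.32 to 6.66 in C against 6.65 to 8.60 in T in EDL, 6.32 to 6.60 against 7.07 to 8.05 in SOL, and 6.44 to 6.92 against 7.89 to 8.76 in heart. Of 7 macrophage markers 2 rose in EDL, none in SOL and 5 in heart, with sums of 8.19 to 8.83 in C against 8.61 to 9.98 in T in EDL, 8.76 to 9.37 against 9.10 to 9.87 in SOL, and 10.02 to 10.36 against 11.15 to 11.40 in heart. Of 7 fibroblast and tendon markers 5 fell in EDL and 5 in SOL, and 2 rose in heart, with sums of 12.32 to 13.05 in C against 11.54 to 12.27 in T in EDL, 12.46 to 13.26 against 11.35 to 11.99 in SOL, and 12.40 to 12.47 against 12.67 to 12.75 in heart. Of 5 endothelial markers, Kdr, the receptor for vascular growth factor, fell by 1.06 in EDL, 1.28 in SOL and 0.81 in heart, the junction protein Cdh5 fell by 0.40 in heart and the adhesion molecule Pecam1 rose by 0.44 in EDL. Their sums were 10.64 to 10.83 in C against 10.56 to 11.00 in T in EDL, 11.01 to 11.16 against 10.51 to 11.17 in SOL, and 11.45 to 11.65 against 11.32 to 11.37 in heart. Of the 3 sets of muscle markers, 3 of 5 fast fibre genes fell in EDL, the troponin Tnnt2 of the 5 heart genes rose by 0.46 in SOL, and of 5 slow fibre genes the myosin Myh7 rose by 2.57 and the light chain Myl3 fell by 0.28 in heart. None of 5 adipocyte or 6 lymphocyte markers was called. Array levels have no true 0, and the part of these cells in the levels of the 9 genes was not tested.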

How the data were processed

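RNA of 58 samples was hybridised to Affymetrix mouse gene arrays. The deposited values are log2 intensities, normalised by the authors with RMA, 1 value per probe set and array. Gene names came from the platform annotation: 21218 of 35556 probe sets had 1 symbol, 1881 several and 12457 none, which gave 18820 genes. Columns of unmapped samples numbered 0. Each tissue was fitted in limma 3.58.1 (R 4.3.3) with its 4 groups and an intensity trend, and p-values were adjusted by Benjamini-Hochberg over all genes. A call is an adjusted p below 0.01. Tissues were compared over all arrays with the mouse as random block (correlation 0.137, the same for all genes). Body mass slopes used 11 mice. Permutation tests were two-sided with 100000 resamples. The number of arrays limits the precision, most in heart. Motifs were searched on both strands with Python 3.11.15. The fits were tested on simulated data.

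The 9 genes and all lists were chosen with earlier results of these data known. Named list genes are up to 4 of the largest called changes of T against C in EDL and any called oppositely in another tissue. Genes in counts of 5 or fewer, or shared by tissues, were added after their values were seen. Trim63, Fbxo32 and Pdk4 were named in heart outside this rule. Genes most like a member are the 3 highest and 3 lowest r for Nr3c1, Fkbp5 and Zbtb16, and 1 of each for the others.

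Replicates are separate mice. The replicate numbers were not taken to pair mice across groups. Of 84 same-numbered pairs, 8 had a correlation of deviations over 0.1 (median 0.005, range -0.42 to 0.40). The highest was that of C and C + WBV replicate 2 in SOL. Alternatives were the variance prior, an intensity-based statistic, a second quantile normalisation, genes above the median level, the brightest probe set, the groups compared alone, all arrays together, an array suffix in the labels, the replicate number, the mouse block, carcass mass and leaving out each sample.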

Additional observations from a re-analysis of the deposited data

Results flagged for a closer look

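T replicate 3, the T mouse that kept most body mass (91%), was set apart from the other 5 T mice in 3 of the values. Its Fkbp5 level in SOL was 8.65, with the nearest other T mouse at 9.52. Its Glul level was 10.60 in EDL, with the nearest at 11.25, and 9.71 in SOL, with the nearest at 10.80. Nr3c1 in SOL was highest in C replicate 2, at 8.65, with the nearest other C mouse at 8.39. These 4 were the outlying values among 72 groups of EDL and SOL samples examined, and chance alone marks about 1 in 20 groups. Heart groups, with 3 mice each, were too small to be examined. The groups share mice, and 3 of the 4 values came from 1 mouse, so that share is only a rough guide. Nr3c1 also differed between tissues, with a tumour effect lower by 0.65 in heart than in EDL (-0.65, SE 0.13, adjusted p = 0.0009).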

How the results depend on the processing

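The 9 changes of T against C kept their direction in every tissue under all alternatives. Calls of T against C counted 4 to 5 members for EDL, 6 to 7 for SOL and 4 to 9 for heart. Comparisons with T + WBV depended on more.

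With only the groups compared, T + WBV against C in EDL counted 2 members, T + WBV against C + WBV in SOL 1, and both heart comparisons with T + WBV 0, as they did with 1 prior variance. With all arrays in one fit, T + WBV against C + WBV counted 6 in SOL and 3 in heart, and T + WBV against C 4 in SOL. With genes above the median level both SOL comparisons counted 4. The array suffix as covariate left 1 in SOL for T + WBV against C + WBV, and turned the change of T + WBV against T in EDL to 0.0045 for Zbtb16 and 0.0040 for Sgk1. With the mouse as a fixed block, Glul was called in the tumour effect of SOL against EDL, 1 member. With carcass mass the slopes counted 2 members in EDL and 0 in SOL, and without T + WBV replicate 2 and T replicate 3, the 2 mice of most extreme body mass, 0 in both. The replicate block left 1 member in T + WBV against C + WBV in SOL, where Glul was lost, and, beside the loss of Sgk1 in heart for T against C, changed no other call of T against C or T + WBV against C + WBV. The cause was not tested.

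Leaving out 1 sample at a time, the counts ranged over 1 to 4 and 2 to 4 in EDL (T + WBV against C + WBV and against C), 1 to 6 and 2 to 5 in SOL, 0 to 8 and 0 to 8 in heart, and 0 to 2 for both slopes. In EDL the change of T + WBV against T ranged from -0.13 to 0.066 for Tsc22d3, -0.19 to 0.020 for Zbtb16 and -0.068 to 0.047 for Sgk1, and that of Hsd11b1 against C + WBV from -0.049 to 0.10. In SOL it ranged from -0.050 to 0.24 for Hsd11b1, -0.56 to 0.10 for Fkbp5, -0.16 to 0.077 for Tsc22d3, -0.18 to 0.046 for Zbtb16 and -0.37 to 0.065 for Glul. In heart it ranged from -0.43 to 0.020 for Tsc22d3, -0.27 to 0.085 for Klf15 and -0.33 to 0.034 for Klf9. With 3 hearts a group, the counts moved most without T + WBV replicate 2, to 8 members in both heart comparisons. The Fkbp5 call against C + WBV was kept without this mouse and lost without any other heart compared.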
